A study of Mus musculus with 4 samples.

Results

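Chromatin accessibility was examined at 9 genes of the FGF and ERK signalling pathway in mouse embryonic stem cells: the ligand Fgf4, the receptors Fgfr1 and Fgfr2, the feedback inhibitors Spry2, Spry4 and Dusp6, and the transcriptional targets Etv4, Etv5 and Egr1. The genes were chosen by name. Every accessible region that overlapped a gene span or the 20 kb on either side of it was counted as a region of that gene. Of the 170898 regions found over all libraries, 125 lay at the 9 genes.

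The measurements were ATAC-seq libraries, in which a transposase inserts sequencing adapters into open DNA. The SOX17FNV group (2 libraries) carried SOX17FNV, an engineered variant of the endoderm factor SOX17, from a lentivirus, and the SOX2 group (2 libraries) carried SOX2, a factor needed for pluripotency, from a lentivirus. Per the labels, both groups were cells of the mouse embryonic stem cell line 2TS22C with the endogenous Sox2 gene silenced and with DOX treatment, and they were grown in 2i medium with serum and LIF. Each library started from 900000 cells, and the titles call the 2 libraries of a group biological replicates without saying whether they came from separate transductions or cultures, so the spread given here is that between these libraries. The sources used here do not give the promoter that drives each lentiviral gene, the level of its product or the number of clones. The silencing of Sox2 was not checked, because peak lists hold no expression values.

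FGF4 is made by embryonic stem cells themselves and binds FGF receptors, which switch on the kinase chain of RAS, RAF, MEK and ERK. ERK signalling moves these cells out of naive pluripotency and, in the early embryo, drives inner cell mass cells towards primitive endoderm. 2i medium holds an inhibitor of MEK, which blocks this pathway, together with an inhibitor of GSK3. SOX2, with OCT4, is a classical activator of Fgf4 through an enhancer in the 3′ part of that gene. Sprouty and DUSP proteins are made in response to ERK and damp it, and ETV4, ETV5 and EGR1 are transcription factors whose genes respond to it.

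The RefSeq table for GRCm38.p6, whose coordinates are those of mm10, holds promoter windows for 5 of the 9 genes, each running from 250 bases before the start to 50 after it. It has 6 such windows, since Etv5 has 2 starts. Fgfr1, Spry4, Etv4 and Egr1 have no entry. The windows below are shown because they separate genes whose start lay under a peak in all 4 libraries (Fgf4, Dusp6, Etv5) from one whose peak lay beside the start (Spry2). They are written 5′ to 3′ on the strand of the gene. Capitals mark GC boxes (GGGCGG) and CCAAT boxes (CCAAT, which reads ATTGG where the match is on the other strand). The windows lie at chr7:144861136-144861435 (Fgf4, plus strand), chr10:99262981-99263280 (Dusp6, plus strand), chr16:22439521-22439820 (Etv5, minus strand) and chr14:105896770-105897069 (Spry2, minus strand).
Fgf4: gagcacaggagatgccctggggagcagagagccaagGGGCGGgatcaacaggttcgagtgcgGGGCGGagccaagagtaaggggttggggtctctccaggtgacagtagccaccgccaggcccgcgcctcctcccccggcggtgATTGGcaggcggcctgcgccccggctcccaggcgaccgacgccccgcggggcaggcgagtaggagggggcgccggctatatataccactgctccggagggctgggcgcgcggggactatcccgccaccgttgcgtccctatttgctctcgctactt
Dusp6: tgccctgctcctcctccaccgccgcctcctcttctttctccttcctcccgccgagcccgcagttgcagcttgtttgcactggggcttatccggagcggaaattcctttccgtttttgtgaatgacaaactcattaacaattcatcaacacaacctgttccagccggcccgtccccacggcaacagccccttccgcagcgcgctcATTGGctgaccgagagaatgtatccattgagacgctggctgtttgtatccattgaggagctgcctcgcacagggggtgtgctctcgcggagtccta
Etv5: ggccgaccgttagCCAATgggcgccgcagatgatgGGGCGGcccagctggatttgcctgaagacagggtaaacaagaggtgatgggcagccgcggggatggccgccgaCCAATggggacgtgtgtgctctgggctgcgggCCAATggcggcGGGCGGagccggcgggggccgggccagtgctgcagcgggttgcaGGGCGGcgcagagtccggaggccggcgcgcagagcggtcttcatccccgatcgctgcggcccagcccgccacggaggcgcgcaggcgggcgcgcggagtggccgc
Spry2: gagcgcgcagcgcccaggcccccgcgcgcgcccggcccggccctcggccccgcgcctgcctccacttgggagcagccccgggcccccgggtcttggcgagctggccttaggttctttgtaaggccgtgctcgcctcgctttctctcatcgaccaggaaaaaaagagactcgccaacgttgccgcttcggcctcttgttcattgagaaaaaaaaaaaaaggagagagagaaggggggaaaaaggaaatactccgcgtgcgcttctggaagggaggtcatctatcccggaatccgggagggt

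The Fgf4 window held 2 GC boxes and 1 CCAAT box, and its GC content was 69.7%. The Etv5 window held 3 GC boxes and 3 CCAAT boxes at 74.0% GC. The Dusp6 window held 1 CCAAT box at 57.3% GC, and the Spry2 window held neither motif at 62.7% GC. The second Etv5 window had 1 CCAAT box at 60.0% GC, and the Fgfr2 window had no match at 43.7% GC. The median over all 32851 windows of the table was 52.7% GC. Over all windows, 35.7% held a GC box and 37.4% a CCAAT box, on either strand. An ETS core (CCGGAAG), a SOX motif (AACAATG or AACAAAG) and an octamer (ATGCAAAT) were searched on both strands as well. None of the 3 was found in the 6 windows, against 8.86%, 9.36% and 1.74% of all windows. No matches overlapped each other. A match describes letters only, and a missing one says nothing of a factor.

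The peak lists of SOX17FNV replicates 1 and 2 held 120341 and 92851 peaks, and those of SOX2 held 123214 and 96500. The files give no read totals. The genome-wide background pileup, a proxy for depth, was 3.91 and 3.27 for SOX17FNV against 4.17 and 5.02 for SOX2, and the weakest listed summits had pileups of 10 to 13. Peaks within 1 kb of a gene end were present at 10 of 10 embryonic stem cell marker genes in every library. They were present at 3 or 4 of 6 primitive endoderm genes, with no peak at Gata4 or Dab2 in any library, and at 5 or 6 of 8 fibroblast genes, with no peak at Dcn or Postn in any library. Across all protein-coding genes the share was 66.8% to 70.2%. The part of other cell types in the results was not tested. Chromosome 14, which holds Spry2, stood apart from the other chromosomes. Of its regions called in all 4 libraries, 63.9% had both SOX17FNV values above both SOX2 values, against 24.1% over the genome.

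All 9 genes had a peak within 1 kb of a gene end in every library. Of their 125 regions, 53 were called in all 4 libraries (42.4%, against 33.8% of all regions and 35.4% of regions within 20 kb of a protein-coding gene). A region was called SOX17FNV-only when both SOX17FNV libraries and neither SOX2 library had a peak in it, and SOX2-only in the reverse case. The genes held 2 SOX17FNV-only regions (1.60%, against 3.06% of all regions and 2.91% of those near genes) and 10 SOX2-only regions (8.0%, against 4.09% and 3.72%). The remaining 60 regions were called in 1 to 3 libraries in other patterns. Among them were 14 called in 3 libraries (7 missed in a SOX17FNV library and 7 in a SOX2 library), 11 called in 1 library of each group and 35 called in a single library. Their relative pileups ran from 0.333 to 1.67 with a median of 0.714, against a median of 1.38 for the 53 regions called in all 4.

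**Figure D1:**
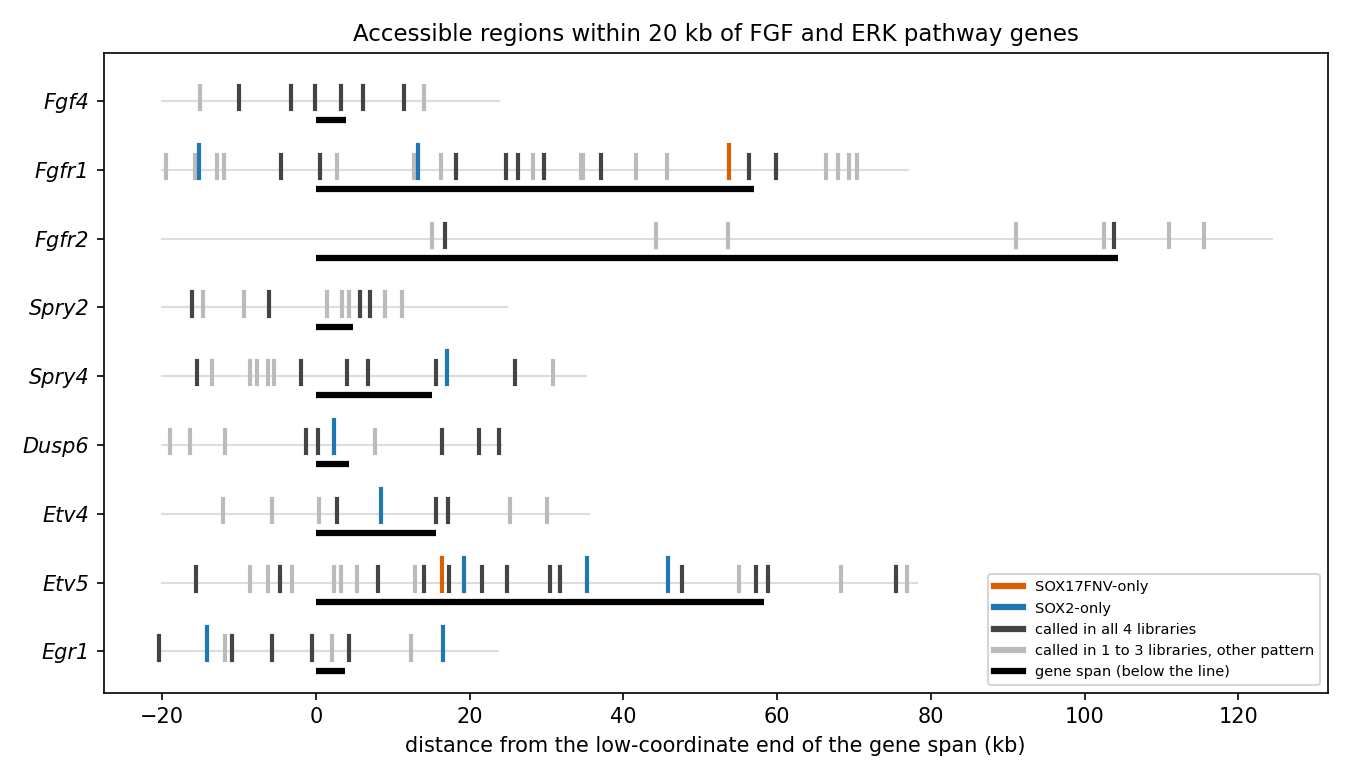
Each row is 1 gene, drawn to scale with its span as a black bar and its 20 kb flanks, and each tick is 1 accessible region at its distance in kb from the low-coordinate end of the gene span. Orange ticks are the 2 SOX17FNV-only regions, blue ticks the 10 SOX2-only regions, dark ticks the 53 regions called in all 4 libraries and light ticks the other 60. SOX2-only ticks stand at 6 of the 9 genes, with 3 at Etv5.

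The number of regions called at the 9 genes was 87 and 71 for SOX17FNV, against 102 and 75 for SOX2. The groups overlapped, with means of 79 ± 11.3 in SOX17FNV and 88.5 ± 19.1 in SOX2 (SD, n = 2 each), a difference of -9.5 (exact permutation test, two-sided, p = 0.667, where 2 against 2 libraries cannot go below 0.333). The difference was -18 without SOX17FNV replicate 1 and -1.5 without SOX17FNV replicate 2. It was -23 with SOX2 replicate 2 left out and turned to 3.5 with SOX2 replicate 1 left out, which has the longest list. As a share of all regions a library called, the genes held 0.0737% and 0.0802% in SOX17FNV against 0.0841% and 0.0811% in SOX2.

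The 12 regions called in 1 group only lay at 6 genes. SOX2-only regions were found at Etv5 (3), Fgfr1 (2), Egr1 (2), Spry4 (1), Dusp6 (1) and Etv4 (1), and 6 of the 10 lay inside the gene. SOX17FNV-only regions were found inside Fgfr1 (1) and inside Etv5 (1), both genes that also held SOX2-only regions. Fgf4, Fgfr2 and Spry2 had none of either kind. Over all 21887 protein-coding genes, 23.0% had at least 1 SOX2-only region in such a window and 19.3% at least 1 SOX17FNV-only region. At least 3 SOX2-only regions, as at Etv5, were found at 1.54% of them. The Etv5 window held 27 regions, against a median of 8 over protein-coding genes, and the part of window size was not tested. The counts depended on the threshold. At a stricter limit, a -log10 q of 10 or more, none of the 12 kept its call. At that threshold 1 region at Spry2 was SOX17FNV-only and 1 at Fgf4 was SOX2-only (2.86% each of the genes' regions, against 3.31% SOX17FNV-only and 2.78% SOX2-only of all regions), both of them regions with weaker peaks in the other group. Calls from a single library in 1 group are more numerous by construction. The SOX17FNV-only count was 6 without SOX17FNV replicate 1 (5.22%, against 9.23% of all regions) and 14 without SOX17FNV replicate 2 (11.5%, against 15.4%). It was 8 with SOX2 replicate 1 left out (7.27%, against 9.80%) and 3 with SOX2 replicate 2 left out (2.44%, against 4.64%). The SOX2-only count was 27 without SOX2 replicate 2 (22% of the genes' regions, against 17.9% of all) and 13 without SOX2 replicate 1 (11.8%, against 12.2%).

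The SOX2-only regions of these genes had a median place at percentile 66.3 of their lists by pileup, whereas all SOX2-only regions had medians at percentiles 37.0 and 29.0 in the 2 SOX2 lists. The other classes also stood higher at these genes. The 2 SOX17FNV-only regions had a median of 62.6, against 29.1 and 28.7 over all such regions in the 2 SOX17FNV lists. Regions called in all 4 had a median of 84.3, against 63.8 to 73.7 over the 4 lists. A list gives no value where it calls no peak, so the pileup of the SOX17FNV libraries in these regions is not known. No p was computed for the counts of group-specific regions or of regions that differ in height, since regions of 1 library are not replicates. A pileup from a bulk library cannot tell fewer open cells from less cutting per cell.

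For regions called in all 4 libraries, the height could be compared. The other regions have no height in at least 1 library and are left out here. The height used is the relative pileup, that is the highest summit pileup in the region divided by the library's median over all autosomal regions called in all 4 libraries (medians of 33 and 24 in SOX17FNV and 35 and 28 in SOX2). A region was called apart when the 2 values of one group were both above the 2 of the other. Of the 53 regions, 7 were apart with SOX17FNV higher (13.2%, against 24.1% of all regions called in all 4) and 13 with SOX17FNV lower (24.5%, against 18.4%), and 33 overlapped. The median log2 ratio, SOX17FNV over SOX2, was -0.02 at these genes (quartiles -0.24 to 0.13) and 0.04 over all regions (quartiles -0.16 to 0.22). The split depended on the scaling. It was 3 higher and 15 lower (5.66% and 28.3%, against 21.5% and 19.8%) when each pileup was set against the shared regions of its own chromosome. It was 11 higher and 6 lower (20.8% and 11.3%, against 31.5% and 4.18%) when set against the background pileup, a scaling that moved the median of all regions to 0.24. The deposited fold over local background was used in place of the pileup in 2 ways. Divided by each library's median fold over the same autosomal regions (the rescaled fold), it gave 10 higher and 8 lower (18.9% and 15.1%, against 16.0% and 18.4%). Taken as deposited, without scaling, it gave 22 higher and 4 lower (41.5% and 7.55%, against 32.2% and 6.48%), and the median of all regions moved to 0.15. With 1 library of a group left out, 11 to 14 were higher (20.4% to 23.7%, against 29.0% to 38.0%) and 24 to 28 lower (44.4% to 47.5%, against 32.4% to 41.1%). Regions over an end of a gene were apart in 3 of 7 cases, and the other regions in 17 of 46. The same split by position was not made over all shared regions, so these counts have no share to be read against.

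**Figure D2:**
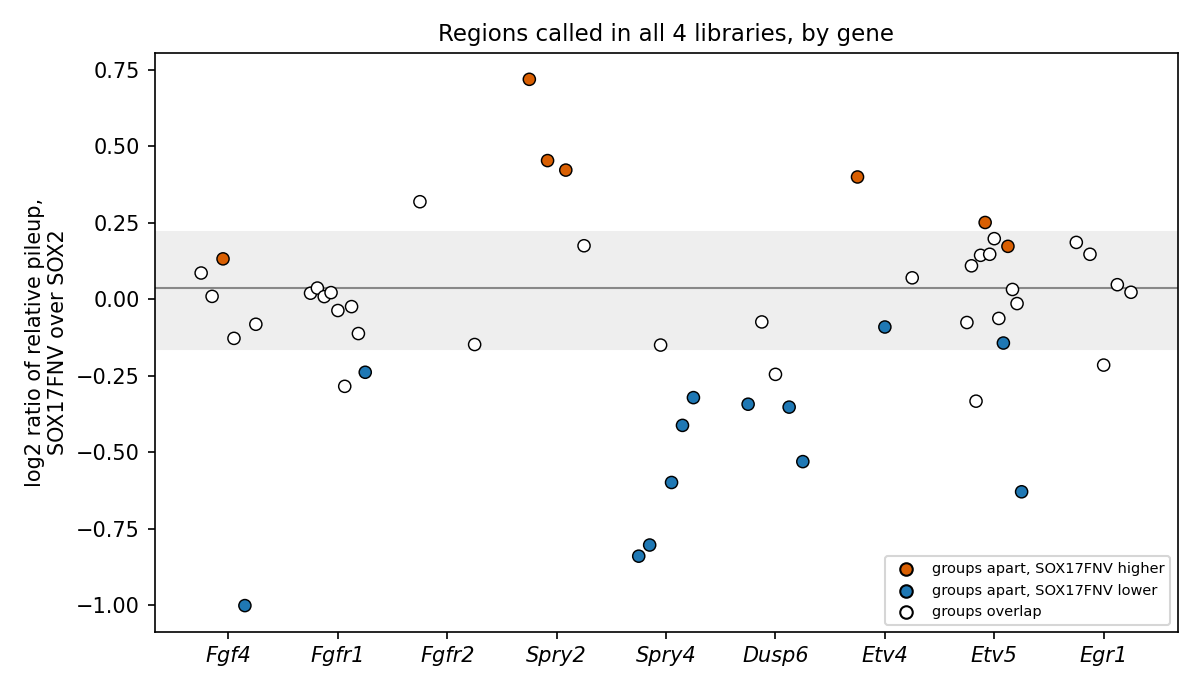
Each point is 1 region called in all 4 libraries, placed by gene on the x axis and by its log2 ratio of relative pileup, SOX17FNV over SOX2, on the y axis. Orange points are apart with SOX17FNV higher (7), blue points are apart with SOX17FNV lower (13) and white points overlap (33); the grey band spans the quartiles of all regions called in all 4, -0.16 to 0.22. The points of Spry2 lie at 0.17 to 0.72, those of Spry4 at -0.84 to -0.15, and 1 point of Fgf4 at -1.0.

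Fgf4, the ligand (chr7:144861386-144865245, plus strand), had 8 regions, of which 6 were called in all 4 libraries. Its start was open in all 4 libraries, and 1 region just past its 3′ end was lower in SOX17FNV. That region (chr7:144867109-144867927) began 1864 bp beyond the gene and had summit pileups of 31 and 21 in the SOX17FNV libraries against 62 and 52 in the SOX2 libraries. Its relative pileup was 0.939 and 0.875 in SOX17FNV and 1.77 and 1.86 in SOX2. The groups did not overlap, and the means were 0.907 ± 0.0455 in SOX17FNV and 1.81 ± 0.0606 in SOX2 (SD, n = 2 each), a log2 ratio of -1.0. That was the lowest ratio of the 53 shared regions at the 9 genes. Over the genome, 0.616% of regions called in all 4 had a ratio that low or lower. This share does not allow for the choice of an extreme region, nor do those given below at Spry2, Spry4 and Etv5. The region stood at percentiles 69.3 and 54.8 of the SOX17FNV lists and 94.98 and 93.5 of the SOX2 lists. Its deposited -log10 q, the authors' value, was 4.91 and 2.88 in SOX17FNV against 15.6 and 13.6 in SOX2. The folds as deposited were 2.74 and 2.60 in SOX17FNV and 3.72 and 3.87 in SOX2, a log2 ratio of -0.51, and the ratio of the rescaled folds was -0.66. The groups stayed apart with both and with each other scaling. Over the 11 alternatives that gave this region a value, the log2 ratio ran from -1.10 to -0.51.

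The log2 ratios of the other shared Fgf4 regions lay between -0.13 and 0.13. The region over the start (chr7:144861032-144861435), which holds the whole window printed above, had pileups of 51 and 35 in SOX17FNV and 46 and 40 in SOX2. Its relative pileup was 1.50 ± 0.0616 in SOX17FNV and 1.37 ± 0.0808 in SOX2 (SD, n = 2 each), a log2 ratio of 0.13. The groups were apart there but overlapped with same-chromosome scaling. The region inside the 3′ part of the gene (chr7:144864315-144865109) had pileups of 44 and 28 in SOX17FNV and 52 and 35 in SOX2. Its groups overlapped by pileup, with a log2 ratio of -0.13. By the fold they were apart with SOX17FNV higher, at 0.18 for the rescaled fold and 0.34 for the fold as deposited. The strongest Fgf4 region (chr7:144857286-144858961), 2425 bp before the gene, had pileups of 55 and 32 in SOX17FNV and 50 and 43 in SOX2 (log2 ratio 0.01, overlapping). The window of Fgf4 also takes in part of the neighbouring ligand gene Fgf3.

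Fgfr1, a receptor of FGF4 in these cells (chr8:25518759-25575718), was the gene with the most regions, 28, or 28.9 per 100 kb of window against a median of 12.3 over protein-coding genes. Of these, 9 were called in all 4 libraries and 12 in a single library. The shared regions of Fgfr1 were close between the groups, with a median log2 ratio of -0.02. The strongest, over the low-coordinate end of the gene (chr8:25518615-25519918), had pileups of 74 and 51 in SOX17FNV and 74 and 60 in SOX2, and relative pileups of 2.18 ± 0.083 in SOX17FNV and 2.13 ± 0.0202 in SOX2 (SD, n = 2 each). A region inside the gene (chr8:25543020-25543969) had pileups of 76 and 47 in SOX17FNV and 65 and 66 in SOX2. Both overlapped between the groups. The 1 region apart (chr8:25578267-25578951) lay 2549 bp above the gene, over the end of the neighbouring gene Letm2, with pileups of 41 and 26 in SOX17FNV and 51 and 36 in SOX2 (log2 ratio -0.24). With the rescaled fold, 4 of the 9 were apart, each lower in SOX17FNV, and the median was -0.23. Unscaled, 1 of the 9 was apart at a median of -0.08, and background scaling put none apart at a median of 0.18.

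The group-specific regions of Fgfr1 stood between percentiles 37.0 and 63.9 of their lists by pileup. The SOX17FNV-only region (chr8:25572339-25572772), inside the gene, had pileups of 25 and 21 and -log10 q of 2.31 and 2.38 in the SOX17FNV libraries. The SOX2-only region inside the gene (chr8:25531887-25532287) had pileups of 28 and 27 and -log10 q of 1.45 and 2.20 in the SOX2 libraries. The SOX2-only region 14971 bp below the gene (chr8:25503208-25503788) had lower pileups, 20 and 22, at a higher -log10 q of 5.45 and 4.75.

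Fgfr2, the receptor that is expressed in primitive endoderm and its precursors (chr7:130162451-130266808, minus strand), was sparsely covered. It had 9 regions over the longest span of the set, 6.23 per 100 kb, and 2 were called in all 4 libraries. The region next to its start (chr7:130265830-130266716), which ended 43 bp short of the promoter window, had pileups of 29 and 19 in SOX17FNV and 27 and 31 in SOX2. The groups overlapped, at relative pileups of 0.835 ± 0.0616 in SOX17FNV and 0.939 ± 0.237 in SOX2 (SD, n = 2 each). The second region (chr7:130179022-130179423) was near the weakest listed pileups, with pileups of 14 and 14 in SOX17FNV and 12 and 13 in SOX2. No region of Fgfr2 was specific to a group.

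Spry2 and Spry4 encode Sprouty proteins, which inhibit receptor signalling upstream of ERK. Spry2 (chr14:105891947-105896819, minus strand) had 11 regions, 4 of them called in all 4 libraries, and 3 of the 4 were apart with SOX17FNV higher. The largest log2 ratio was at chr14:105875623-105876157, 15790 bp past the 3′ end. It had pileups of 41 and 28 in SOX17FNV and 25 and 21 in SOX2, and relative pileups of 1.20 ± 0.0536 in SOX17FNV and 0.732 ± 0.0253 in SOX2 (SD, n = 2 each), a log2 ratio of 0.72. Ratios that high or higher made up 1.62% of all regions called in all 4. Of the 4 shared regions, the one nearest the start (chr14:105897245-105897999) lay 176 bp from the window printed above. It had pileups of 62 and 55 in SOX17FNV and 48 and 49 in SOX2, a log2 ratio of 0.42. The third (chr14:105884936-105886777) had pileups of 37 and 27 in SOX17FNV and 33 and 20 in SOX2, a log2 ratio of 0.45. The strongest Spry2 region (chr14:105898595-105899275) had pileups of 60 and 56 in SOX17FNV and 64 and 51 in SOX2, and overlapped at 0.17.

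These Spry2 values moved with chromosome 14. The median relative pileup of shared regions over that chromosome was 1.14 and 1.17 for SOX17FNV, against 0.886 and 0.893 for SOX2, a median ratio of 1.30. Of its shared regions, 4.64% were apart with SOX17FNV lower. On chromosome 14, 8.65% of regions were SOX17FNV-only and 1.57% SOX2-only, against 3.06% and 4.09% over the genome. With pileups scaled to shared regions of the same chromosome, the median log2 ratio of Spry2 was 0.06 in place of 0.44, and scaled to those within 5 Mb it was 0.01. The distal region stayed apart with SOX17FNV higher at 0.35 with chromosome scaling, the 2 regions next to it in value overlapped at 0.08 and 0.05, and the strongest became apart with SOX17FNV lower at -0.20. For the regions that then overlapped, a difference at Spry2 and one of the whole chromosome cannot be told apart.

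Spry4 (chr18:38586247-38601347) had 13 regions, 6 of them called in all 4 libraries, and 5 of the 6 were apart with SOX17FNV lower. On chromosome 18 as a whole, 19.5% of shared regions were apart in that direction and 19.6% in the other one. The region with the largest difference (chr18:38570387-38571299) lay 14948 bp below the gene and had pileups of 33 and 27 in SOX17FNV and 72 and 49 in SOX2. Its relative pileups were 1.06 ± 0.0884 in SOX17FNV and 1.90 ± 0.217 in SOX2 (SD, n = 2 each), a log2 ratio of -0.84, and 1.28% of all regions called in all 4 had a ratio that low or lower. The next (chr18:38583859-38584829), 1418 bp below the gene, had pileups of 15 and 17 in SOX17FNV and 32 and 30 in SOX2, a log2 ratio of -0.80.

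Inside Spry4, the region at chr18:38592716-38593233 had pileups of 19 and 19 in SOX17FNV and 32 and 32 in SOX2 (log2 ratio -0.60). The strongest region of the locus (chr18:38600848-38602907) covers the high-coordinate end of Spry4 and the end of the neighbouring gene Arhgap26. It had pileups of 42 and 36 in SOX17FNV and 69 and 48 in SOX2, and relative pileups of 1.39 ± 0.161 in SOX17FNV and 1.84 ± 0.182 in SOX2 (SD, n = 2 each). The SOX2-only region (chr18:38603128-38603548) stood 221 bp from it, inside the span of Arhgap26, with pileups of 36 and 38 and -log10 q of 2.21 and 5.10 in the SOX2 libraries. The fifth region apart (chr18:38611880-38612296) was weak, at pileups of 12 and 11 in SOX17FNV and 17 and 15 in SOX2. Only chr18:38589942-38590627 overlapped, at pileups of 30 and 19 in SOX17FNV and 28 and 31 in SOX2.

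The median log2 ratio of Spry4 was -0.51, and it was -0.53 both with same-chromosome and with 5 Mb scaling, each with 5 of 6 regions apart. With background scaling it was -0.30 with 3 apart. With the rescaled fold, which sets each summit against the background around it, the median was -0.16 and 1 of the 6 was apart, the distal one at -0.28. With the fold as deposited the median was -0.01, none was apart with SOX17FNV lower and 2 were apart with SOX17FNV higher. One of those was the region at the end of the gene, with deposited folds of 3.60 and 3.76 in SOX17FNV and 3.47 and 3.19 in SOX2. The heights at Spry4 were lower in SOX17FNV by pileup. With the rescaled fold, 5 of the 6 log2 ratios were still below 0, each nearer to equal than by pileup. With the fold as deposited, 3 of the 6 were below 0.

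Dusp6, the phosphatase that removes the activating phosphates from ERK (chr10:99263231-99267489, plus strand), had 10 regions, 5 of them called in all 4 libraries. All 5 log2 ratios were below 0 and 3 were apart with SOX17FNV lower. The strongest, over the start (chr10:99262732-99264388), holds the whole window printed above. It had pileups of 60 and 63 in SOX17FNV and 81 and 64 in SOX2, relative pileups of 2.22 ± 0.571 in SOX17FNV and 2.30 ± 0.0202 in SOX2 (SD, n = 2 each), and overlapped. A region 803 bp before the gene (chr10:99261501-99262428) had pileups of 35 and 35 in SOX17FNV and 53 and 46 in SOX2, a log2 ratio of -0.34. The other regions apart lay downstream. The one 16586 bp past the gene (chr10:99284075-99284746) had pileups of 24 and 15 in SOX17FNV and 33 and 22 in SOX2 (log2 ratio -0.35). The one 19348 bp past it (chr10:99286837-99287295) had pileups of 17 and 16 in SOX17FNV and 27 and 26 in SOX2 (log2 ratio -0.53), and it was apart in every scaling. The overlapping downstream region (chr10:99279207-99280161) had pileups of 22 and 12 in SOX17FNV and 27 and 17 in SOX2.

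The SOX2-only region of Dusp6 (chr10:99265436-99265663) lay inside the gene, with pileups of 33 and 29 but a -log10 q of 1.53 and 2.35 in the SOX2 libraries, where the lowest value in any list was 1.30. The median log2 ratio of Dusp6 was -0.34 and, with same-chromosome scaling, -0.37. It was -0.14 with background scaling and -0.04 with the rescaled fold, each with 1 of 5 regions apart, and 0.12 with the fold as deposited.

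**Figure D3:**
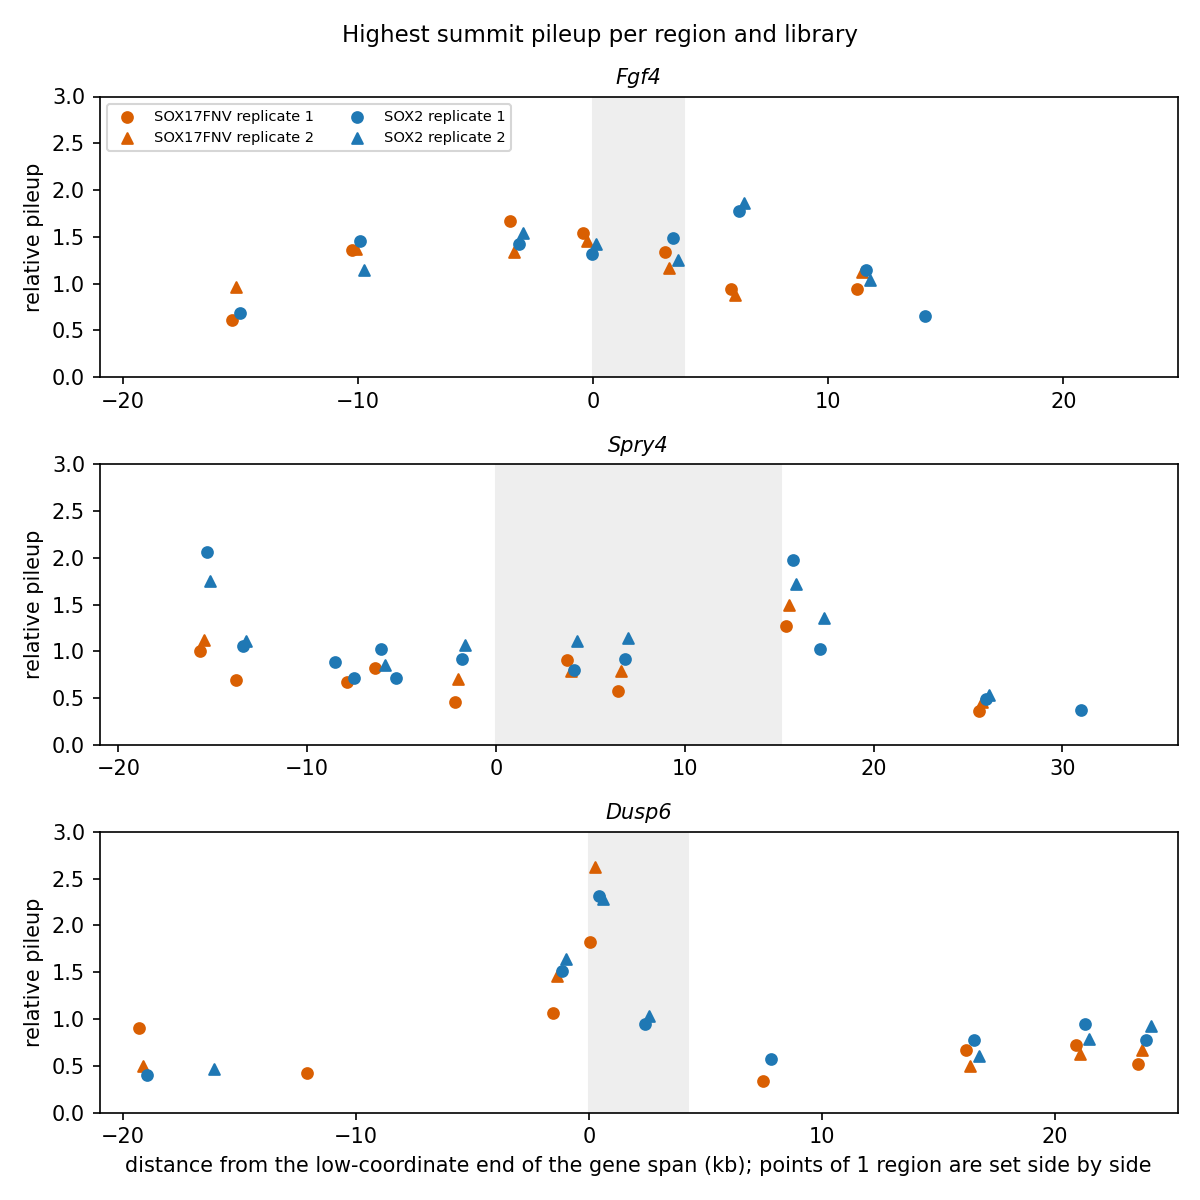
Each panel is 1 gene (Fgf4, Spry4, Dusp6), with the distance from the low-coordinate end of the gene span in kb on the x axis and the highest summit pileup of each region, divided by the library's median, on the y axis. Orange points are the SOX17FNV libraries and blue points the SOX2 libraries (circles replicate 1, triangles replicate 2), and the grey band is the gene span. The Fgf4 region past the gene stands at 0.939 and 0.875 in SOX17FNV against 1.77 and 1.86 in SOX2.

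Etv4, one of the PEA3 group of ETS factors that follow FGF signalling (chr11:101769747-101785310), had 9 regions, 3 of them called in all 4 libraries. The strongest (chr11:101771955-101773105), inside the gene, was higher in SOX17FNV, with pileups of 68 and 62 in SOX17FNV and 60 and 50 in SOX2. The groups did not overlap, at relative pileups of 2.32 ± 0.37 in SOX17FNV and 1.75 ± 0.0505 in SOX2 (SD, n = 2 each), a log2 ratio of 0.40. The region was apart in the same direction in every scaling, with folds as deposited of 6.52 and 6.45 in SOX17FNV and 4.07 and 3.67 in SOX2. The region over the high-coordinate end (chr11:101784361-101786265) had pileups of 50 and 37 in SOX17FNV and 59 and 44 in SOX2. It was apart at a log2 ratio of -0.09, but the sign turned to 0.11 with background scaling and 0.16 with the rescaled fold. The SOX2-only region (chr11:101777974-101778357) was inside the gene, with pileups of 21 and 20 and -log10 q of 2.44 and 1.34 in the SOX2 libraries.

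Etv5, the related factor that is active in embryonic stem cells (chr16:22381313-22439570, minus strand), had 27 regions, or 27.5 per 100 kb, with 13 called in all 4 libraries. It held 3 of the 10 SOX2-only regions and 1 of the 2 SOX17FNV-only regions, all inside the gene. The strongest SOX2-only region (chr16:22400266-22400798) had pileups of 55 and 41 in the SOX2 libraries, percentiles 91.6 and 85.9 of their lists, with -log10 q of 5.42 and 4.29. The others had pileups of 42 and 35 (chr16:22416300-22416898) and 35 and 27 (chr16:22426884-22427326) in the SOX2 libraries. The SOX17FNV-only region (chr16:22397570-22397834) had pileups of 34 and 26 and -log10 q of 1.47 and 1.92 in the SOX17FNV libraries.

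Shared Etv5 regions had a median log2 ratio of 0.03, and 4 of 13 were apart, 2 in each direction. The start (chr16:22439197-22441126), which holds its window printed above, had pileups of 58 and 50 in SOX17FNV and 61 and 60 in SOX2, and relative pileups of 1.92 ± 0.23 in SOX17FNV and 1.94 ± 0.283 in SOX2 (SD, n = 2 each). The second start (chr16:22438457-22438790) had pileups of 40 and 28 in SOX17FNV and 39 and 34 in SOX2. The strongest region (chr16:22402634-22403160) had pileups of 81 and 54 in SOX17FNV and 64 and 69 in SOX2. All 3 overlapped between the groups. The region farthest from an equal height (chr16:22456460-22457071) lay 16890 bp upstream of the gene, with pileups of 13 and 13 in SOX17FNV and 25 and 20 in SOX2. Its relative pileup was 0.394 and 0.542 in SOX17FNV and 0.714 in each SOX2 library, a log2 ratio of -0.63, and it was apart in every scaling. A ratio that low or lower was found at 3.30% of all regions called in all 4. Of the other regions apart, chr16:22398450-22398748 was at 0.25, and overlapped with the rescaled fold (0.20) and with 5 Mb scaling (0.15). The region at chr16:22428176-22429751 was at 0.17. It overlapped with same-chromosome scaling (0.10), the rescaled fold (0.21) and 5 Mb scaling (0.07). The last (chr16:22412554-22413584) was at -0.14, and at 0.06 with background scaling. With 5 Mb scaling, 0 of the 13 shared regions were apart with SOX17FNV higher and 4 with SOX17FNV lower.

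Egr1, an immediate early gene of ERK signalling (chr18:34861207-34864956), had 10 regions, and none of its 5 shared regions was apart. The region over the low-coordinate end (chr18:34859884-34861578) was the strongest of all 125 by mean relative pileup, with pileups of 84 and 69 in SOX17FNV and 92 and 73 in SOX2. It stood at percentiles 99.5 and 99.4 of the SOX17FNV lists and 99.9 and 99.3 of the SOX2 lists. Its relative pileups were 2.71 ± 0.233 in SOX17FNV and 2.62 ± 0.0152 in SOX2 (SD, n = 2 each), and the log2 ratio was 0.05. The region at the other end (chr18:34865008-34866113) had pileups of 62 and 50 in SOX17FNV and 59 and 63 in SOX2. The gene had 2 SOX2-only regions and 0 SOX17FNV-only ones. One (chr18:34846851-34847114) lay 14093 bp below it, in the span of the neighbouring gene Reep2, with pileups of 23 and 30 and -log10 q of 1.46 and 4.04 in the SOX2 libraries. The other (chr18:34877552-34878013) lay 12596 bp above it, with pileups of 23 and 17 and -log10 q of 6.38 and 2.46 in the SOX2 libraries.

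**Figure D4:**
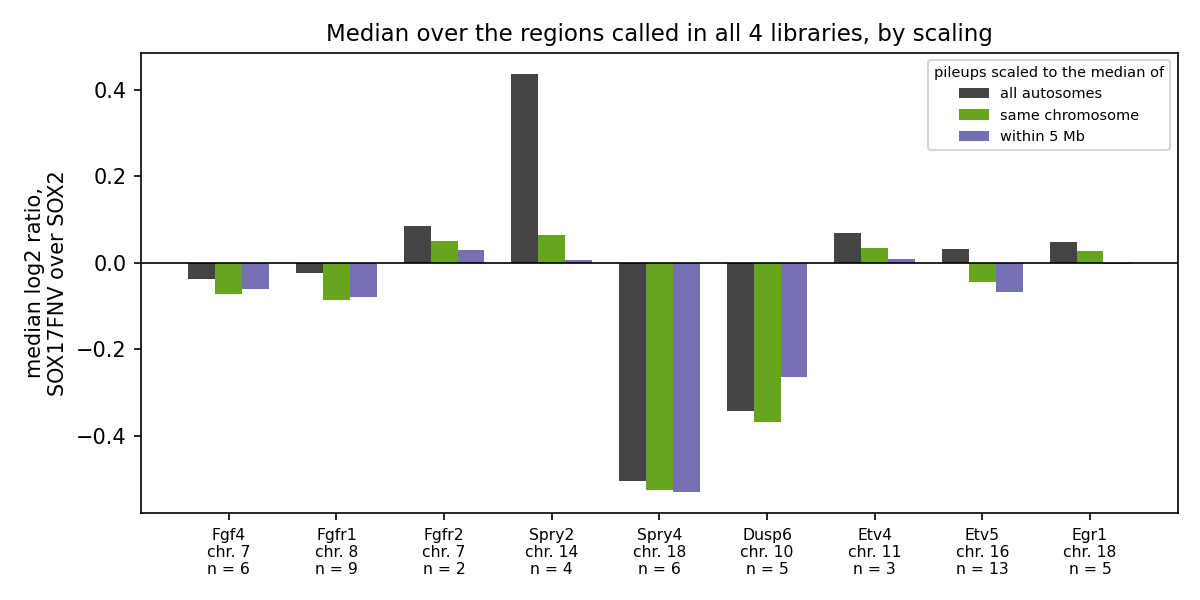
Bars give, for each gene, the median log2 ratio of relative pileup (SOX17FNV over SOX2) over its regions called in all 4 libraries, with n below the gene name, for pileups scaled to shared regions of all autosomes, of the same chromosome or within 5 Mb of the gene. The bar of Spry2 is at 0.44 with all autosomes, 0.06 with the same chromosome and 0.01 within 5 Mb, and that of Spry4 is at -0.51, -0.53 and -0.53.

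At the starts of the 5 genes with a RefSeq window, 3 genes (4 of 6 windows) had a peak on the window in all 4 libraries, against 42.2% of all 32851 windows. Within 1 kb of the start it was 5 of 5 genes, against 49.9% of all starts. No library differed from another in which of these starts it called. Over all 9 genes, none of the 12 group-specific regions lay over a gene end. The same count was not made over all group-specific regions, so there is no share to read it against.

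Beyond the 9 members, 72 other FGF and ERK pathway genes were counted in the same way, with 878 regions. Of these, 31 were SOX17FNV-only (3.53%, against 3.06% of all regions) and 34 were SOX2-only (3.87%, against 4.09%). Of their 364 regions called in all 4 libraries, 94 were apart with SOX17FNV higher (25.8%, against 24.1%) and 52 with SOX17FNV lower (14.3%, against 18.4%). The median log2 ratio was 0.05, against 0.04 over all regions. A group-specific region was found at 42 of the 72 genes, with 14 genes having only SOX17FNV-only regions, 18 only SOX2-only regions and 10 both. That made 24 genes with a SOX17FNV-only region (33.3%, against 19.3% of protein-coding genes) and 28 with a SOX2-only region (38.9%, against 23.0%). The windows of the 72 genes held a median of 10 regions and those of protein-coding genes 8, and the part of window size in these shares was not tested.

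By role, counts are given as SOX17FNV-only and SOX2-only, which made up 3.06% and 4.09% of all regions. The ligand genes had 0 and 4 among 90 regions (0% and 4.44%). The receptors and co-receptors had 2 and 3 among 76 (2.63% and 3.95%). The adaptors and exchange factors had 8 and 6 among 179 (4.47% and 3.35%). The kinase cascade had 7 and 8 among 191 regions (3.66% and 4.19%), and the inhibitors 10 and 10 among 182 (5.49% each). The transcriptional targets and effectors had 4 and 3 among 160 (2.5% and 1.88%). The adaptor genes Frs2 (3 SOX17FNV-only, 1 SOX2-only) and Gab1 (2 and 2) had 4 such regions each. Rps6ka1, a kinase downstream of ERK, had 3 SOX17FNV-only regions, and the repressor gene Erf had 2, and neither had a SOX2-only region. The RAS exchange factor gene Sos1 and the inhibitor genes Spred2 and Spred3 had 2 SOX2-only regions each and none of the other kind. The ETS factor gene Elk3 had 1 SOX17FNV-only and 2 SOX2-only regions, and Nf1, which encodes a RAS inactivator, had 2 and 1. Dusp7, Il17rd, Myc, Rps6ka3 and Shc1 had 1 of each kind. Cic, Dusp1 and Dusp2 had 1 SOX17FNV-only region, and Araf and Dusp4 had 1 SOX2-only region. Of all protein-coding genes, 4.06% had at least 2 SOX17FNV-only regions and 5.62% at least 2 SOX2-only regions. At least 3 SOX17FNV-only regions, as at Frs2 and Rps6ka1, were found at 0.955%. The genes were named by their counts, and these shares do not allow for that choice.

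Among the inhibitor genes, 31 of 77 shared regions were apart with SOX17FNV higher (40.3%, against 24.1% of all shared regions). Another 9 were apart with SOX17FNV lower (11.7%, against 18.4%). Of the 31, 10 belonged to Il17rd, which lies on chromosome 14 as Spry2 does. They were 10 of its 11 shared regions, where 63.9% of all shared regions of that chromosome were higher in SOX17FNV. The 2 other signalling inputs of the medium were counted for comparison. Genes of LIF and STAT3 signalling had 148 regions, with 4 SOX17FNV-only (2.70%) and 11 SOX2-only (7.43%). Genes of the beta-catenin and TCF branch, on which the GSK3 inhibitor acts, had 255 regions, with 10 SOX17FNV-only (3.92%) and 11 SOX2-only (4.31%). The share of SOX2-only regions at the 9 members, 8.0%, was near that of the LIF and STAT3 genes, and no test was made between these lists.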

How the data were processed

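The authors deposited 1 MACS2 narrowPeak list per library, called per library, as the peak names in each list show. Per the submitters' processing notes, Bowtie2, SAMtools and MACS2 were used with build mm10; versions, settings, read filters and any transposase shift of reads: not given in the sources used here. The deposited columns hold a score, a fold (the ratio of summit pileup to local background), and -log10 values of p and q per summit, with a lowest -log10 q of 1.30 (a q of 0.05). Read depth was not analysed here, so the pileup was solved from the deposited fold, (pileup + 1)/(background + 1), and the Poisson p. A whole pileup matched within 0.001 of -log10 p for 100% of summits, and all 49884 simulated pileups were recovered.

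Peaks on chromosomes 1 to 19, X and Y sharing at least 1 bp were joined, which gave 170898 regions. Gene spans, without strand, and promoter windows came from RefSeq tables of GRCm38.p6, and all 9 genes were found. Counts of regions were read against all regions with no p, and regions per library were compared by an exact permutation test. With 2 libraries a group, an SD is a rough measure. Alternatives covered the peak threshold, list length, scaling, flank, coverage and left-out libraries. The deposited fold was compared both divided by its library median and as deposited. The unscaled fold, joining close peaks and leaving out Etv5 or Spry2 were chosen after seeing the data. The genes and lists were chosen with earlier results of these data known. Regions given in full are those over a start or gene end, the strongest by mean relative pileup and each group-specific one. Those apart and some that overlap were given as well, a choice that was not set beforehand. Of the other pathway genes, up to 20 were named by their count of group-specific regions, with ties in alphabetical order, and 1 of them is not reported here. Python 3.11.15, numpy 2.4.6, pandas 2.3.3 and SciPy 1.17.1 were used.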

Additional observations from a re-analysis of the deposited data

How the results depend on the processing

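The count of regions per library (SOX17FNV minus SOX2, -9.5) turned to 1 at a -log10 q of at least 10, and it ran from -23 to 3.5 when 1 library was left out. The labels do not say that a replicate number marks a shared batch, and 2 pairs are too few to decide it, so the numbers were not used as pairs. The deviations of same-numbered libraries correlated at r = 0.233 over 57783 regions, and both replicate 1 lists are the longer ones of their group. Of the 53 shared regions, 8 were higher and 18 lower in SOX17FNV within both pairs. The same count was not made over all shared regions, so these numbers have no share to be read against. With the replicate block the difference was -9.5 (exact sign-flip permutation test, two-sided, p = 0.5, the smallest possible) and the median log2 ratio -0.02. SOX17FNV-only regions (2) numbered 1 at -log10 q of at least 5 (1.45%, against 3.40% of all regions) and at least 10 (2.86%, against 3.31%). In the strongest 50000 peaks of each list there was 1 as well (1.79%, against 4.42%). They numbered 1 without Etv5, 5 with 50 kb flanks and 3 to 14 with 1 library left out. SOX2-only regions (10) numbered 4 and 1 at the 2 thresholds, 6 with lists of equal length, 3 in the strongest 50000 peaks, 6 in the gene span alone, and 12 to 27 with 1 library left out.

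Regions apart with SOX17FNV higher (7) numbered 3 and 1 at the 2 thresholds (12.5% each, against 22.5% and 19.4% of all shared regions). With equal lists there were 4 (8.89%, against 19.5%), and in the strongest 50000 peaks 3 (13.6%, against 19.2%). Where peaks had to cover 50% of a region there were 4 (13.3%, against 18.6%). They numbered 4 in the gene span alone, 15 with 50 kb flanks and 4 without Spry2, settings for which no shares were computed. The count was 3 with same-chromosome scaling, 11 with background scaling, 22 with the unscaled fold and 11 to 14 with 1 library left out. Those with SOX17FNV lower (13) numbered 5 and 2 at the thresholds, 4 in the strongest 50000 peaks, 7 with the 50% cover, 4 in the gene span alone, 6 with background scaling, 8 with the rescaled fold, 4 with the unscaled fold, and 24 to 28 with 1 library left out. The median log2 ratio was 0.18 with background scaling and 0.18 with the unscaled fold. At the other pathway genes, SOX17FNV-only regions (31) numbered 7 at -log10 q of at least 10 and 46 to 118 with 1 library left out. SOX2-only regions (34) numbered 7 and 5 at the 2 thresholds, 12 in the strongest 50000 peaks and 38 to 120 with 1 library left out. Shares at the other pathway genes were not computed for these settings. Genes with a peak at the start in all 4 libraries numbered 5 in place of 3 within 1 kb.

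With 1 library left out, SOX17FNV-only minus SOX2-only ran from -4 to 5 at Fgfr1, from -5 to 2 at Elk3, from -4 to 8 at Nf1, from -5 to 1 at Sos1, from -10 to 2 at Spred2 and from -1 to 1 at Dusp4. It also turned at Dusp6 to 1 with equal lists, and at Elk3 to 1 at -log10 q of at least 5 and in the strongest 50000 peaks. The log2 ratio turned at Spry2 105897245 to 105897999 to -0.0090 with 5 Mb scaling, at Etv4 101784361 to 101786265 to 0.11 with background scaling, 0.16 with the rescaled fold and 0.32 with the unscaled fold, and at Etv5 22412554 to 22413584 to 0.059 with background scaling and 0.062 with the unscaled fold. The unscaled fold also turned it at Spry4 38592716 to 38593233 (0.017) and 38600848 to 38602907 (0.15), and at Dusp6 99261501 to 99262428 (0.051) and 99284075 to 99284746 (0.12). Of 920 alternatives for single genes and regions, 605 stayed the same, 296 moved and 19 turned at a gene with a group-specific region or a region apart. A gene difference stayed the same only if its value was unchanged. A log2 ratio did so if it moved by no more than the SD between replicates. The stricter lists hold fewer peaks, and a left-out library loosens the rule for a group-specific call. For other settings the cause was not tested.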
